A study of Mus musculus with 7 samples.

Results

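The globin and erythroid genes described here were Hba-a1, Hba-a2, Hbb-bs, Hbb-bt, Alas2, Slc4a1 and Ahsp, chosen by gene symbol as markers of red blood cells and their precursors. Of these 7 genes, 6 had a row in the gene tables, among 50600 genes in all, and Ahsp is not analysed here. RNA from olfactory epithelium, where the sensory neurons of smell lie, was sequenced after poly(A) capture from mice at postnatal day 7. There were 3 Amigo1neo/neo libraries (neo), in which a neomycin cassette stands in place of the coding region of Amigo1, 3 Amigo1-/- libraries (KO) and 1 Amigo1+/+ library (WT). By its title, the study addressed whether leaving a selection cassette in the locus changes the expression of other genes. Amigo1 encodes a neuronal adhesion protein, and both mutant groups lack it. The sources used here do not give the promoter of the cassette, the strain of the mice or their sex, and they name no treatment.

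Haemoglobin carries oxygen in red cells and is built from alpha-like and beta-like chains, each holding a haem group. In the mouse the adult alpha chain is encoded by the near-identical copies Hba-a1 and Hba-a2, and the adult beta chain by Hbb-bs and Hbb-bt in the strain of the reference genome. Other strains carry the pair Hbb-b1 and Hbb-b2 at this locus, for which no values are given here. The strain of these mice is not known, so if they carry that pair its reads could be among those given to Hbb-bs and Hbb-bt. Circulating red cells of mammals have no nucleus, so globin RNA in blood comes mostly from reticulocytes, the youngest red cells, which still hold RNA. Alas2 encodes the erythroid form of the first enzyme of haem synthesis, and Slc4a1 encodes band 3, the anion exchanger of the red cell membrane. In a bulk sample, fewer red cells and less globin RNA per cell cannot be told apart.

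The 4 globin genes form 2 pairs of copies whose coding sequences are almost the same, which bears on every count below. Hba-a1 (ENSMUSG00000069919.7, GRCm38 chr11:32283511-32284465, plus strand) and Hba-a2 (ENSMUSG00000069917.7, chr11:32296489-32297298, plus strand) each have 429 coding bases. They differ at 1 of them, C381T, counted from 1 at the A of the start codon of Hba-a1, and the encoded protein is the same. Hbb-bs (ENSMUSG00000052305.6, chr7:103826534-103828096, minus strand) and Hbb-bt (ENSMUSG00000073940.3, chr7:103812524-103813996, minus strand) each have 444 coding bases. They also differ at 1, C417T, again with the same protein. The windows around the difference, read from the reference genome on the strand of the gene, are shown because they hold the bases by which a read from the coding part can be given to 1 copy, and the capital marks the base that differs.
Hba-a1 (chr11:32284313-32284373): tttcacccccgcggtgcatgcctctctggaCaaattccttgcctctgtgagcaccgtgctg
Hba-a2 (chr11:32297130-32297190): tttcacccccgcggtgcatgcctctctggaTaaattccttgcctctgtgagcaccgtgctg
Hbb-bs (chr7:103826665-103826722): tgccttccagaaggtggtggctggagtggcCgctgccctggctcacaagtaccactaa
Hbb-bt (chr7:103812656-103812713): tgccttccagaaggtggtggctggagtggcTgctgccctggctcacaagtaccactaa

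Only part of each transcript is unique to its gene among annotated transcripts. Of the 650 windows of 50 bases in the Hba-a1 transcript (699 bases, GENCODE vM21), 211 or 32.5% were found in no transcript of another gene. For Hba-a2 (554 bases) this was 66 of 505 windows, or 13.1%, and 50 of those 66 spanned the coding difference. In Hbb-bs (628 bases) 198 of 579 windows were unique (34.2%), and in Hbb-bt (703 bases) 273 of 654 (41.7%). Every shared window was shared with the other copy of the pair. The windows were searched for in transcripts and not in the whole genome. For Hba-a1, 161 of the 211 windows lie in sequence that the genome also holds upstream of Hba-a2. Those 161 therefore do not tell the alpha-globin copies apart in the genome, while the other 50 span the coding difference. The window length is a choice made here, since the sources used here give no read length.

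The upstream regions of the copies were compared in the same way. The RefSeq promoter table (GRCm38.p6, 250 bases before to 50 after the transcription start) matched 5 of the members. The windows of Hba-a1 and Hba-a2 were the same over all 297 bases that aligned at a shift of 3, so 1 of them is shown beside those of Hbb-bs and Hbb-bt. Capitals mark exact matches, on either strand, to 5 short motifs of kinds known from globin promoters. They were CCAAT for the CCAAT box and GATAAG for the element that GATA factors bind, the forms CCACCC or, longer, CCACACCC for the CACCC box, and ATATAA for the TATA box.
Hba-a1 (chr11:32283422-32283721, plus strand): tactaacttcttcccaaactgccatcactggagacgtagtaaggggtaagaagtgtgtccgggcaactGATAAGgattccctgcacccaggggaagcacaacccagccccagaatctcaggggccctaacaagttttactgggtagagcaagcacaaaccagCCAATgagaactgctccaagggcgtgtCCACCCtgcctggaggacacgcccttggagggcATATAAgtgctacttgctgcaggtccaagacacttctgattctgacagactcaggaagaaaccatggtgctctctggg
Hbb-bs (chr7:103827879-103828178, minus strand): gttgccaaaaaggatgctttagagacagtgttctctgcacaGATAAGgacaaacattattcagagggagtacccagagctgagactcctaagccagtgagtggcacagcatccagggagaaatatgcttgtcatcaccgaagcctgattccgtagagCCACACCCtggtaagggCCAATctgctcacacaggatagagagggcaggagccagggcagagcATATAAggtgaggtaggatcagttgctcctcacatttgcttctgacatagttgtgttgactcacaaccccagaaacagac
Hbb-bt (chr7:103813874-103814173, minus strand): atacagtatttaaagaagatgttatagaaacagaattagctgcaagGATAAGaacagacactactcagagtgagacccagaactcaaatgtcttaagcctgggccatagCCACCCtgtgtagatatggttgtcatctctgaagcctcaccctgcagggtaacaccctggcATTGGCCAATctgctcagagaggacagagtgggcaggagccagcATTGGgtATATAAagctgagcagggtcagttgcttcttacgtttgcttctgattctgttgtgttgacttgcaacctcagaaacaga
All 4 globin windows held CCAAT (present in 37.4% of the 32851 windows in the table), GATAAG (in 7.44%) and ATATAA (in 9.82%). CCACCC, in 31.5% of windows, was in those of Hba-a1, Hba-a2 and Hbb-bt, and the longer CCACACCC, in 3.56%, was in that of Hbb-bs. In Hbb-bt 2 of the 3 CCAAT matches lie side by side on opposite strands and share no base. The Alas2 window held 3 overlapping CCACCC matches on the minus strand and none of the other motifs. A match is a description of letters and not evidence of binding.

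Depth and labels were checked first. Gene counts totalled 14879415 to 21343058 per library. Amigo1 had 1 to 11 counts in neo and 0 to 16 in KO libraries, against 744 in WT. The olfactory markers were high in all 7 libraries, with Omp, the marker of mature olfactory neurons, at 784 to 1163 CPM (gene counts scaled by TMM library size). KO and WT share a date-like number and a line code in their sample names, and neo has others, so genotype cannot be told apart from date or line there. Xist, the RNA of the inactive X chromosome, was at 1145 CPM in neo replicate 1 and 644 CPM in WT, against at most 4.18 CPM in the other 5 libraries, so these libraries differ in sex as read from their transcripts.

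Adult globin RNA was present in every library and was a small share of the transcriptome. The 4 globin genes together had 2977, 1952 and 1590 TPM (RSEM transcript abundance scaled to a fixed total, as deposited) in neo replicates 1 to 3, 1734, 2416 and 1647 TPM in KO replicates 1 to 3, and 3020 TPM in WT. These sums were 0.159% to 0.302% of all TPM. The sum was highest in WT and neo replicate 1, the libraries with high Xist, and next in KO replicate 2. The part of sex in these levels was not tested.

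Hbb-bs, the beta-globin copy with the most counts, had 275, 223 and 153 CPM in neo, 174, 271 and 202 CPM in KO, and 315 CPM in WT. Hbb-bt, the other beta-globin copy, had 45.8, 32.5 and 32.8 CPM in neo, 31.6, 39.1 and 26.7 CPM in KO, and 47.9 CPM in WT. For both beta genes the neo and KO values overlapped, and WT was the highest of the 7 libraries.

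Hba-a1, an alpha-globin copy, had 19.7, 25.2 and 17.2 CPM in neo, 19.2, 24.7 and 16.5 CPM in KO, and 28.4 CPM in WT. Hba-a2, its twin, had 15.8, 15.2 and 9.11 CPM in neo, 12.01, 14.5 and 12.3 CPM in KO, and 17.8 CPM in WT. The neo and KO values again overlapped, with WT above both. The lowest single value of Hba-a2 was in neo replicate 3, from 137 counts.

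Alas2, needed for haem in developing red cells (ENSMUSG00000025270.13, chrX:150547375-150570638, plus strand), had 12.6, 9.87 and 10.4 CPM in neo, 15.7, 14.5 and 7.85 CPM in KO, and 16.4 CPM in WT. The lowest value was in KO replicate 3, and the spread in KO covered all 3 neo values. Slc4a1, the anion exchanger (ENSMUSG00000006574.15, chr11:102348824-102366203, minus strand), had 2.90, 1.61 and 4.32 CPM in neo, 6.005, 6.17 and 3.10 CPM in KO, and 3.40 CPM in WT. It rested on 27 to 115 counts per library, the fewest of the members. KO replicates 1 and 2 were above all other libraries, while KO replicate 3 fell among the neo values, so the groups overlapped here too.

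**Figure D1:**
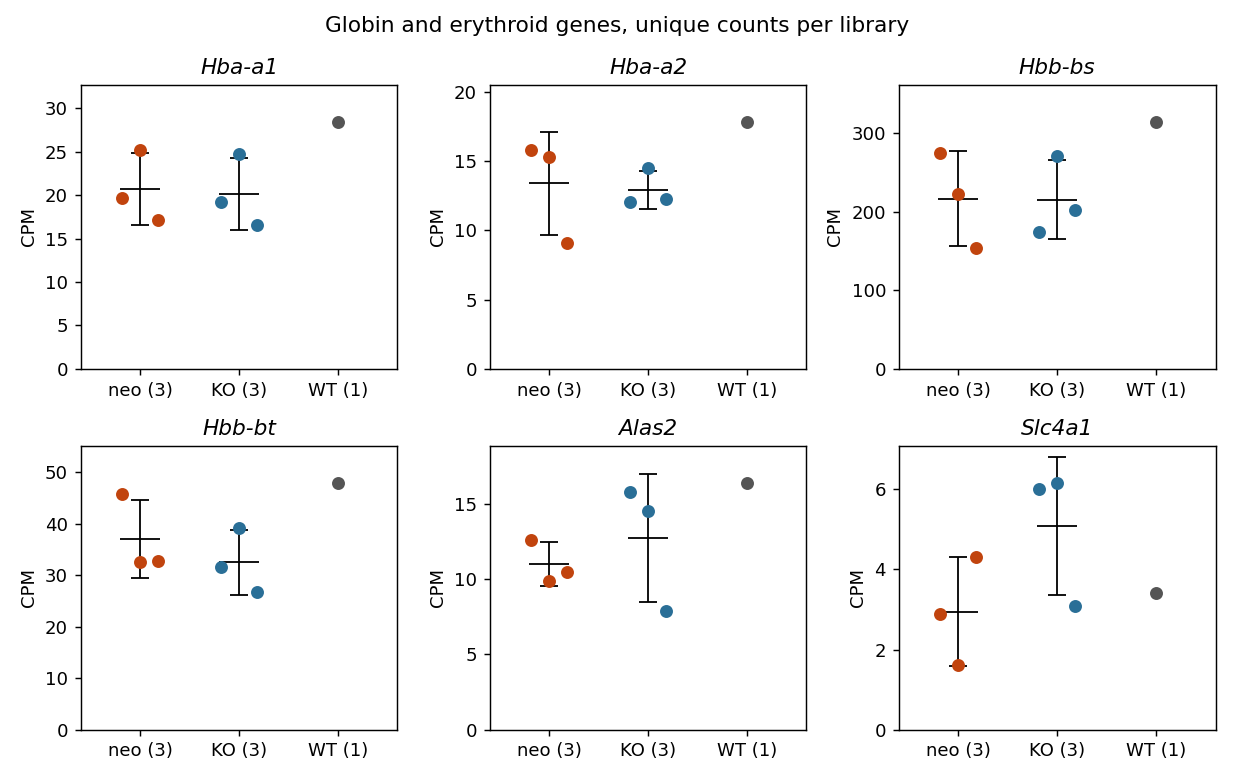
CPM of each member by library, with neo, KO and WT from left to right. Points are libraries, and bars are the mean ± SD of the 3 libraries in neo and KO. The neo and KO points overlap in all 6 panels, and the single WT library is the highest for all members but Slc4a1.

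Between neo and KO, no member differed beyond the spread between libraries. Of these 6 libraries only neo replicate 1 had high Xist, so sex was not balanced between the groups. Hbb-bs averaged 217 ± 60.8 CPM in neo and 216 ± 49.8 CPM in KO (SD, n = 3 each), a log2 change of 0.01 with a 95% interval of -0.56 to 0.58 (adjusted p = 0.993, edgeR). Hba-a1 averaged 20.7 ± 4.13 CPM in neo and 20.1 ± 4.18 CPM in KO, a log2 change of 0.04 (interval -0.39 to 0.47). For Hba-a2 the log2 change was 0.06 (interval -0.43 to 0.54). These 3 estimates lay within 0.1 of no change, and the widest of their intervals was that of Hbb-bs. Hbb-bt averaged 37.0 ± 7.56 CPM in neo and 32.5 ± 6.27 CPM in KO, a log2 change of 0.19 (interval -0.22 to 0.60, adjusted p = 0.788, edgeR). It was 0.012 without neo replicate 1 and 0.36 without KO replicate 2.

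The erythroid genes that encode no globin had values on the other side of 0. Alas2 averaged 10.97 ± 1.45 CPM in neo and 12.7 ± 4.24 CPM in KO, a log2 change of -0.20 (interval -0.77 to 0.37, adjusted p = 0.847, edgeR). It was -0.022 without KO replicate 1 and -0.46 without KO replicate 3 (adjusted p = 0.991 and 0.553, edgeR), and -0.014 by limma on log2(TPM + 0.1). Slc4a1 averaged 2.94 ± 1.36 CPM in neo and 5.09 ± 1.73 CPM in KO. Its log2 change of -0.79 (SE 0.38, interval -1.66 to 0.08) was the furthest from 0 among the members, and it did not pass the test (unadjusted p = 0.0707, adjusted p = 0.559, edgeR). The authors' deposited DESeq2 table gives KO over neo and calls 0.429% of the 18429 genes with an adjusted p. There Slc4a1 was at 0.79 with an adjusted p of 0.649 (DESeq2), and the other 5 members had adjusted p-values of 0.993 or more.

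Counting members, 0 of 6 passed an adjusted p of 0.05 by edgeR, and 0 of 6 had an unadjusted p under 0.05, against 0.017% and 9.32% of all 17638 genes tested. By DESeq2 and by limma on TPM 0 of 6 passed as well, where 0.313% and 0.00529% of all genes did. The DESeq2 shares here and below are over genes with a p-value, 30704 in neo against KO, whether or not they had an adjusted p. In 0 of 6 members the neo and KO values were fully apart, while over all genes 7.59% had every neo library above every KO library and 7.98% had every one below. The median log2 change of the 6 members was 0.03 and that of the 4 globins 0.05, beside -0.0022 over all genes.

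Against the WT library, the globins and Alas2 were lower in both mutant groups, but the differences did not pass the test. Xist was at 644 CPM in WT and at most 4.18 CPM in all 3 KO libraries. In KO against WT, sex and genotype therefore cannot be told apart. In KO the log2 change was -0.54 for Hbb-bs, -0.50 for Hba-a1, -0.46 for Hba-a2 and -0.37 for Alas2. For Hbb-bt it was -0.56 with a 95% interval of -1.12 to -0.0015 (unadjusted p = 0.0495, adjusted p = 1.0, edgeR). Slc4a1 went the other way, at 0.58 (interval -0.69 to 1.85). KO replicates 1 and 2 were above WT for this gene and KO replicate 3 was below it.

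In neo against WT the log2 change was -0.54 for Hbb-bs, -0.46 for Hba-a1, -0.41 for Hba-a2 and -0.37 for Hbb-bt. Alas2 was at -0.57 and Slc4a1 at -0.21. Among the neo libraries only replicate 1 had high Xist, as WT had. These comparisons share the 1 WT library, whose spread was taken to be that of the others, so its high globin level enters every value. In KO against WT 0 of 6 members were called by edgeR, DESeq2 or limma on TPM, where 0.00523%, 0.00319% and 0.0106% of all genes were. In neo against WT 0 of 6 were called, where the same tools called 0.0105%, 0.00957% and 0.0264% of genes. At an unadjusted p under 0.05 there was 1 of 6 in KO against WT, beside 0.727% of genes, and 0 of 6 in neo against WT, beside 2.97%. WT was above all 6 other libraries in 5 of 6 members, and in 8.13% of all genes. The globins went together over the libraries, as described below, so these members are not independent observations.

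**Figure D2:**
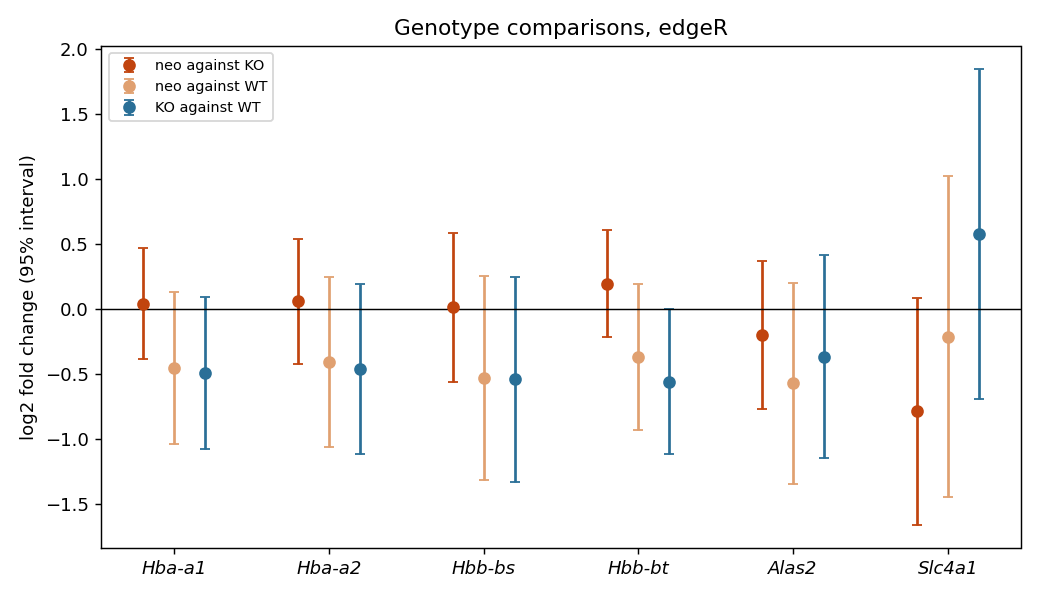
Log2 fold change (vertical axis) of each member in neo against KO, neo against WT and KO against WT, as points with 95% intervals from edgeR. The neo against KO values of the 4 globins lie between 0.01 and 0.19. The values against WT lie below 0 for all members except Slc4a1 in KO.

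Counted uniquely and estimated by RSEM, the globin copies gave different pictures of the same libraries. The deposited counts leave out reads that map to several places, a class that held 14.5% to 19.6% of the reads per library. The deposited TPM came from RSEM, which shares such reads out among copies. For each gene the TPM was divided by its unique counts per kilobase and set relative to the median gene of the library. Over 10465 genes with at least 100 counts in every library, this ratio lay between 0.931 and 1.38 from the 5th to the 95th percentile.

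The alpha-globin copies were far outside that range. Hba-a2 had a median ratio of 16.7 over the 7 libraries, above 99.9% of those genes, and Hba-a1 had 6.83, above 99.5%. Hbb-bt was at 2.14 and Hbb-bs at 1.96, above 97.6% and 97.3%. Alas2 and Slc4a1 have no such twin, and their medians, 1.02 and 1.03, lay inside the range. Single libraries of Slc4a1 ran from 0.739 in WT to 1.43 in KO replicate 3, so some lay outside it. In most libraries Slc4a1 also had fewer than the 100 counts asked of the genes that set the range. The order of these ratios over the 4 globins, Hba-a2, Hba-a1, Hbb-bt and Hbb-bs, differs from that of their non-unique windows only in the place of the beta copies. The sizes did not follow the windows as closely. Hba-a1 and Hbb-bs had 32.5% and 34.2% of windows unique among transcripts, at ratios of 6.83 and 1.96. For Hba-a1, 161 of its 211 unique windows lie in sequence that the genome also holds upstream of Hba-a2. The other 50 span the coding difference. The part of this in the ratios was not tested.

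**Figure D3:**
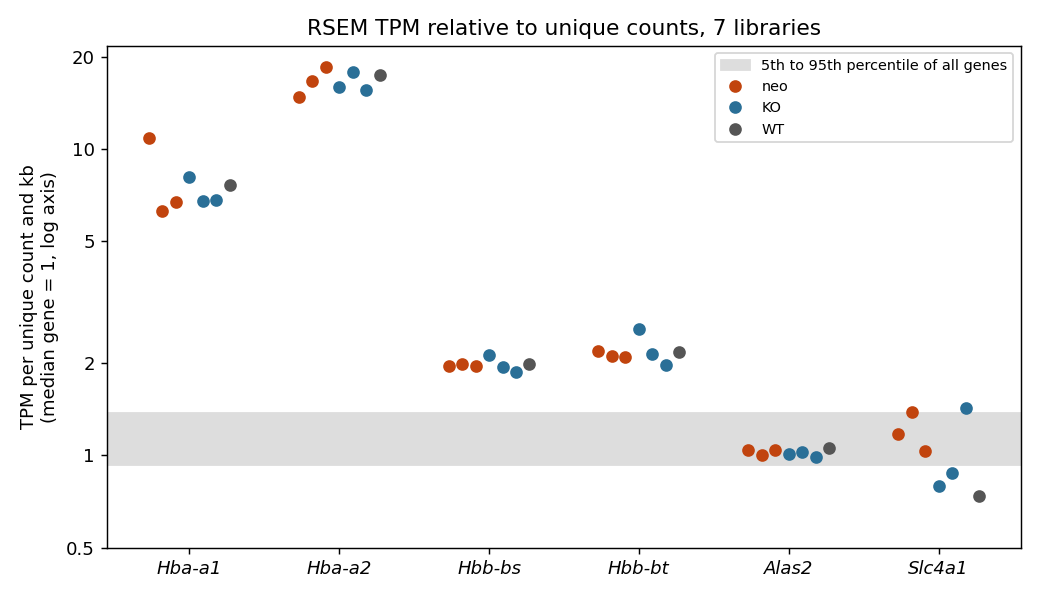
TPM per unique count and kilobase, relative to the median gene of each library (log axis), for each member. Points are libraries of neo, KO and WT, and the grey band runs from 0.931 to 1.38, the 5th to 95th percentile of genes. Hba-a2 and Hba-a1 lie far above the band, both beta-globins near 2, and most values of Alas2 and Slc4a1 in or close to it.

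The choice of table therefore changes which copy is ahead. By TPM the order of levels was Hbb-bs, Hba-a2, Hba-a1, Hbb-bt, Alas2, Slc4a1 in 7 of 7 libraries, with Hbb-bs 1.54 to 2.03 times Hba-a2. By unique counts per kilobase it was Hbb-bs, Hbb-bt, Hba-a1, Hba-a2, Alas2, Slc4a1, and Hba-a1 was above Hba-a2 in 6 of 7 libraries, at 0.988 to 1.49 times its level. Every other step of both orders held in 7 of 7 libraries. Alpha over beta was 0.730 to 0.854 by TPM and 0.111 to 0.158 by unique counts. The tables thus rank the alpha-globin copies in opposite order in 6 of 7 libraries. Unique counts were divided by the whole transcript length, although the copies differ in how much of it is unique. The unique counts therefore do not measure which alpha-globin copy is higher. The part of annotated length and shared sequence in either order was not tested.

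The share of each copy did not separate neo from KO by either measure. Hba-a2 made up 44.5%, 37.7% and 34.7% of unique alpha-globin counts in neo, 38.5%, 36.9% and 42.6% in KO, and 38.5% in WT. By TPM its share was 58.0%, 66.9% and 64.9% in neo, 60.9%, 66.1% and 68.2% in KO, and 64.4% in WT. Neo replicate 1 thus had the highest Hba-a2 share of all libraries by counts and the lowest by TPM. Its 95% Wilson interval by counts, 41.2% to 47.9%, does not overlap the 30.2% to 39.5% of neo replicate 3, and these intervals cover counting error only.

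The mean Hba-a2 share by counts was 39.0% ± 5.05 in neo and 39.4% ± 2.93 in KO, a difference of -0.39 percentage points (exact permutation test, two-sided, p = 0.9). With 3 libraries against 3 the smallest p this test allows is 0.1. Hbb-bt made up 14.3%, 12.7% and 17.6% of unique beta-globin counts in neo, 15.4%, 12.6% and 11.7% in KO, and 13.2% in WT. By TPM it made up 14.3%, 12.1% and 17.0% in neo, 16.5%, 12.4% and 11.05% in KO, and 12.9% in WT. For the beta pair the measures gave nearly the same share in each library. The neo mean exceeded the KO mean by 1.66 points by counts (exact permutation p = 0.5) and by 1.17 points by TPM (exact permutation p = 0.6). The difference by counts was 0.29 points without neo replicate 3 and 2.73 points without KO replicate 1.

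**Figure D4:**
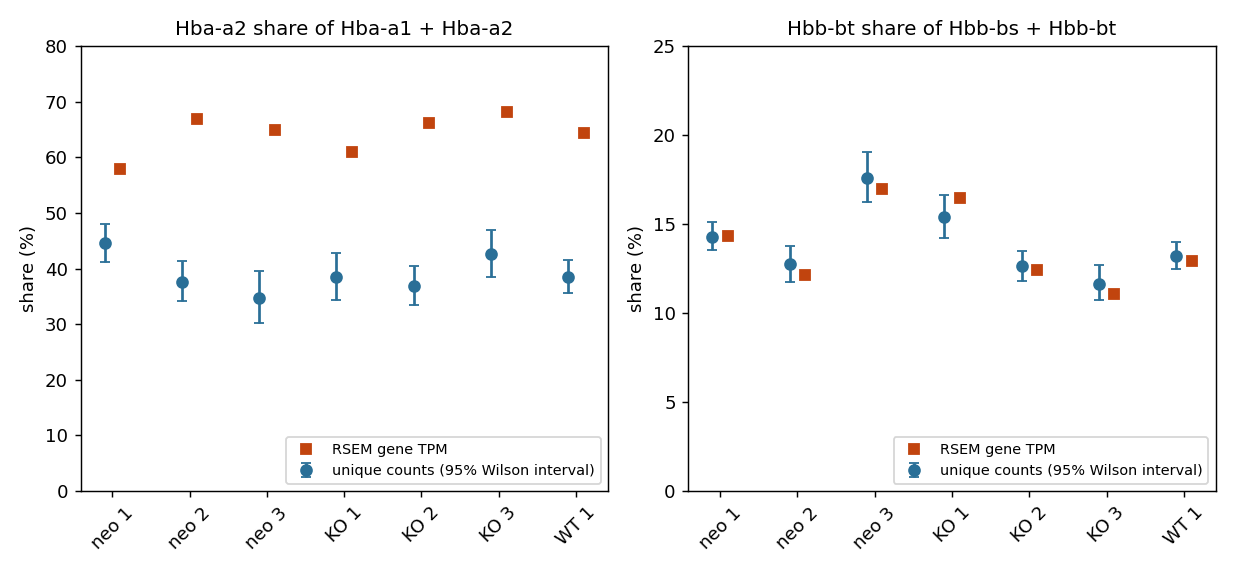
Share of Hba-a2 in both alpha-globin copies (left) and of Hbb-bt in both beta-globin copies (right), in percent, for each library from neo to KO to WT. Circles are unique counts with 95% Wilson intervals and squares are RSEM TPM. The measures stand apart for Hba-a2, at 34.7% to 44.5% against 58.0% to 68.2%, and close together for Hbb-bt.

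Among transcripts, each globin gene was read almost wholly as its main coding form. The retained-intron transcript of Hba-a1 took 0.198% to 1.16% of its TPM, and the main coding transcript of Hbb-bs took 99.9% or more of its own after rounding. Alas2 was estimated as a pair of coding transcripts. The shorter, of 1892 bases, took 15.3%, 0.0% and 6.63% of Alas2 TPM in neo, 12.3%, 51.3% and 46.6% in KO, and 15.02% in WT, so that KO replicates 2 and 3 stood above the rest. The coding transcript of Slc4a1 was at 1.08, 0.43 and 1.39 TPM in neo, 1.78, 2.02 and 0.86 TPM in KO, and 1.03 TPM in WT. A short non-coding form of 356 bases added 0.53, 0.37 and 0.47 TPM in neo, 0.0, 0.12 and 0.42 TPM in KO, and was listed at 0 in WT. Alas2 as a whole had 142 to 356 counts per library, and its shorter coding form was at 0.0 to 5.63 TPM. At this depth these splits of Alas2 and Slc4a1 rest on few reads.

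Set against globin, Alas2 and Slc4a1 again overlapped between neo and KO. Per 1000 globin counts Alas2 had 35.4, 33.3 and 49.1 counts in neo, 66.5, 41.5 and 30.4 in KO, and 40.1 in WT. Slc4a1 had 8.14, 5.45 and 20.3 in neo, 25.4, 17.7 and 12.01 in KO, and 8.33 in WT. Over the 7 libraries the log2 CPM of Slc4a1 had a Pearson r of -0.36 to 0.03 with the 4 globins, while the globins had 0.63 to 0.93 with each other. These are descriptions over 7 points that share library and depth.

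Some genes largely restricted to blood-forming cells were close to the limit of detection, while regulators and receptors that other cells use too were not. Gata1, the master regulator of red cell development, had 0 to 3 counts in every library, and Klf1, the activator of the adult beta-globin genes, had 3 to 9. Gfi1b, a repressor of the same lineage, had 2 to 8 counts and Epor, the erythropoietin receptor, 1 to 10. None of these 4 passed the filter on low counts. In the same lists Lmo2, a transcription cofactor, had 444 to 642 counts, Ldb1, its partner, 1606 to 3217, and Kit, the stem cell factor receptor, 861 to 1582. A count of 0 allows up to 3 counts in a library. Embryonic globin RNA was likewise at or near 0, with 0 to 4 counts of Hbb-y, 0 to 2 of Hbb-bh1 and 0 or 1 of Hba-x. Hbq1a had no count in any library. These genes were named for their place in the lists, after their values were seen.

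The other erythroid lists held no gene that passed the test between neo and KO. Of the erythroid transcription regulators 7 of 10 were tested, 0 passed and 0 had an unadjusted p under 0.05, where 9.32% of all genes had. Their median log2 change was -0.04. Tal1, a partner of Gata1, was nearest, at -0.34 (adjusted p = 0.753, edgeR). Of the genes of precursors and maturation 15 of 21 were tested and 0 passed by edgeR, with 0 higher and 1 lower in neo at an unadjusted p under 0.05. Hemgn, a nuclear protein of haematopoietic cells, had 3, 9 and 3 counts in neo, 13, 12 and 11 counts in KO and 3 counts in WT, a log2 change of -1.27 (adjusted p = 0.525, edgeR). This was the 1 gene under 0.05, and the 1 tested gene of the list whose neo and KO values did not overlap, where 4.72% of all genes were lower at that p and 7.98% were wholly lower in neo. Tfrc, the transferrin receptor that brings iron into cells, was at -0.23 (adjusted p = 0.599, edgeR).

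Of the genes of haem synthesis and its transport into and out of mitochondria 12 of 12 were tested and 0 passed by edgeR, with 3 higher in neo and 0 lower at an unadjusted p under 0.05, where 4.59% and 4.72% of all genes were. Alad, the enzyme of the second step of haem synthesis in all cells, had 37.5, 57.8 and 70.4 CPM in neo, 27.2, 28.5 and 26.5 CPM in KO, and 30.6 CPM in WT. Every neo library was above every KO library, at a log2 change of 1.01 (SE 0.20, adjusted p = 0.34, edgeR). Alad was highest in neo replicate 3, the library with the lowest globin sum. Ppox, which acts late in haem synthesis, was at 0.42 and Slc25a37, the mitochondrial iron importer mitoferrin, at 0.38 (adjusted p = 0.471 and 0.499, edgeR). Both also had neo values wholly above those of KO, as had 7.59% of all genes. Cpox, which acts one step before Ppox, had neo values wholly below those of KO, as had 7.98% of all genes, at 42.0, 42.0 and 42.8 CPM in neo, 47.2, 52.1 and 45.5 CPM in KO, and 47.4 CPM in WT (log2 change -0.19, adjusted p = 0.571, edgeR).

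Of the red cell membrane and skeleton genes 12 of 16 were tested and 0 passed by edgeR, with 1 higher in neo at an unadjusted p under 0.05, where 4.59% of all genes were. That gene was Tmod1, a tropomodulin that caps actin filaments, at 0.53 (adjusted p = 0.535), with overlapping groups. The median log2 change was -0.07 in this list and 0.05 in the haem list, beside -0.0022 over all genes.

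Markers of other blood and vessel cells ordered the libraries differently from the globins. The summed level of 12 endothelial genes, which mark vessel walls, was 220 to 260 CPM in neo, 211 to 276 CPM in KO and 191 CPM in WT, so that it was lowest in the library with the most globin. The summed level of 10 platelet and megakaryocyte genes was 15.8 to 20.6 CPM in neo, 13.8 to 17.2 CPM in KO and 17.1 CPM in WT, of which Itga2b, an integrin chain of platelets, made up 8.15 to 13.6 CPM. Of the parts of a platelet receptor complex, named after their values were seen, Gp1ba and Gp9 had 0 to 2 counts, Gp5 2 to 11 and Gp1bb 10 to 37. Pf4, the platelet factor, was at 3.32, 3.65 and 4.52 CPM in neo, 2.88, 3.16 and 3.54 CPM in KO, and 3.22 CPM in WT. In both lists 0 genes passed between neo and KO by edgeR and 0 had an unadjusted p under 0.05, where 9.32% of all genes had.

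The 15 neutrophil and marrow granule genes summed to 1134, 2016 and 2672 CPM in neo, 1806, 1361 and 2125 CPM in KO, and 1377 CPM in WT, with Ltf, lactoferrin, which glands also make, at 856, 1849 and 1829 CPM in neo, 1545, 977 and 912 CPM in KO, and 1138 CPM in WT. Of this list 11 genes were tested, 0 passed by edgeR and 1 was lower in neo at an unadjusted p under 0.05, where 4.72% of all genes were. That gene was Mmp9, a matrix metalloproteinase, with 152, 92.9 and 95.1 CPM in neo, 199, 184 and 349 CPM in KO, and 158 CPM in WT. Its log2 change was -1.10 (adjusted p = 0.486, edgeR), with neo wholly below KO, as had 7.98% of all genes. S100a8, a neutrophil calprotectin chain named after its values were seen, had 26.5, 14.5 and 89.3 CPM in neo, 12.01, 22.4 and 77.3 CPM in KO, and 11.7 CPM in WT. Its high libraries, neo replicate 3 and KO replicate 3, had the lowest and the third lowest globin sum in CPM. Of the 11 bone-forming genes 0 passed by edgeR and 9 were lower in neo at an unadjusted p under 0.05, where 4.72% of all genes were, with a median log2 change of -1.11. Their sum was 6939, 5831 and 3287 CPM in neo, 11670, 9395 and 15239 CPM in KO, and 9870 CPM in WT. The part of bone or marrow in the erythroid values was not tested.

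**Figure D5:**
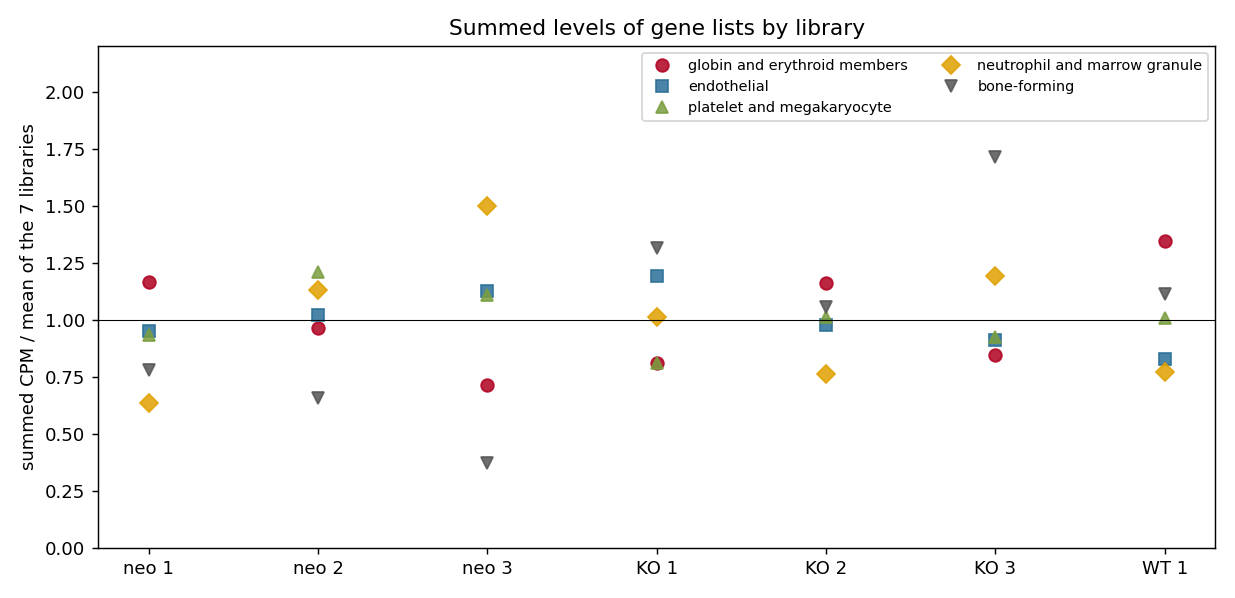
Summed CPM of 5 gene lists in each library, divided by the mean of the 7 libraries, from neo to KO to WT. The globin and erythroid members are highest in WT, neo replicate 1 and KO replicate 2, the bone-forming genes are lower in all 3 neo libraries than in any KO library, and the endothelial and platelet lists vary least.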

How the data were processed

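RNA of 7 libraries was analysed, grouped by sample title. Raw gene counts were deposited by the authors, stranded by the name of their table. Per the submitters' processing notes, Trimmomatic 0.35, STAR 2.5.1b and the build GRCm38 (mm10) were used. The 4 rows that name no gene were left out: multimapping reads (14.5% to 19.6% of the reads), reads without a feature (14.2% to 17.4%), ambiguous reads (0.666% to 0.865%) and unmapped reads (3.32% to 4.38%). The deposited TPM values per gene and transcript were RSEM estimates, per the submitters' processing notes. The authors' deposited comparison of KO over neo, made with DESeq2 1.18.1, gave a log2 fold change, p-values and a standard error used as a score, per the file headers. FPKM tables were not used here.

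The main test was edgeR 4.0.16 (R 4.3.3) in its quasi-likelihood form, robust and two-sided, with TMM scaling, filterByExpr (minimum count 10, total 15) and a Benjamini-Hochberg threshold of 0.05. Neo against KO used 6 libraries, and comparisons with WT all 7. The script was tested on simulated data. All 6 members passed the filter in every comparison. For genes with a mean TPM of 0.5 or more, limma 3.58.1 was run on log2(TPM + 0.1) and log2(TPM + 1), a scale that understates changes of low genes, and DESeq2 1.42.0 on counts. Other alternatives were RLE factors, TMM without Gm42418 and the globins, no filter, 50 counts in 3 libraries, other sets of libraries, a replicate block and leaving out each library. Transcripts were compared by windows in GENCODE vM21.

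Members and the 11 other gene lists were chosen with earlier results of these data known. From each list the text names genes past the threshold, otherwise up to 4 with the smallest p in neo against KO, then the 8 genes most like the members, and marks others. Some genes that this rule names are not reported here. Whether every library is from a separate animal is not stated in the labels, so a p-value reflects the scatter of these libraries, which may be technical. Depth was 14879415 to 21343058 gene counts. Wilson intervals of shares and the limit set by a count of 0 cover counting error only, while edgeR intervals cover the spread between libraries.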

Additional observations from a re-analysis of the deposited data

How the results depend on the processing

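No member passed the test under any alternative, the lowest adjusted p being 0.530 in neo against KO, 1.0 in KO against WT and 0.642 in neo against WT. Of 90 alternative member values per comparison, the direction held in 81, 90 and 87. In neo against KO it held over all 16 settings for Hbb-bt, Alas2 and Slc4a1. Their log2 changes ran from 0.012 to 0.36, from -0.46 to -0.014 and from -1.15 to -0.27. Leaving out each library in turn, neo against KO ranged from -0.12 to 0.22 for Hba-a1, -0.078 to 0.27 for Hba-a2 and -0.19 to 0.22 for Hbb-bs (log2), and the difference in Hba-a2 share from -3.18 to 1.75 points, so none of these has a stable direction. Slc4a1 in neo against WT was 0.35 and 0.23 by limma with pseudocounts of 0.1 and 1, and -0.58 to 0.079 with a library left out, the 0.079 without neo replicate 2; the cause was not tested. On TPM the median of all genes moved to 0.097 in neo against KO and -0.092 in KO against WT (log2, pseudocount 0.1).

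Counts of genes called over the whole table were small and depended on the tool. In neo against KO edgeR called 3, DESeq2 96, no filter 40, and the 50-count filter and limma with either pseudocount 1 each. Leaving out libraries gave 1 to 17, with 17 without neo replicate 1 and 1 without KO replicate 2 or 3 or neo replicate 3. In KO against WT edgeR called 1, limma 2 and 16, no filter 2, a fit of only the 2 groups 6, and leaving out libraries 1 to 4, with 4 without neo replicate 1 and 2 without neo replicate 3. In neo against WT edgeR called 2, limma 5 and 17, no filter 7, and leaving out libraries 2 to 6, with 6 without neo replicate 1 and 5 without KO replicate 1.

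Same-numbered neo and KO libraries had deviations from their group means that correlated at -0.14, -0.05 and 0.19, so the numbers were not taken to pair the samples. With a replicate block 1 gene was called in neo against KO and 1 in neo against WT, Hbb-bs was at -0.0080 in neo against KO, and the exact permutation p was 0.75 for the Hbb-bt share and 1.0 for the Hba-a2 share, where 0.25 is the smallest possible.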

Other observations

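The genes named here for a profile like that of the members were in none of the gene lists. The profile was the mean over the 6 members of their centred log2 CPM, and 16437 genes with a mean of at least 1 CPM were ranked by Pearson r with it over the 7 libraries. Among the highest were Cept1, a phospholipid-synthesis enzyme, at 0.985, Trmt12, a tRNA-modifying enzyme, at 0.982, the odorant receptor Olfr787 at 0.970, and Spock3, a proteoglycan, at 0.964. Also high were Polr3b, a subunit of RNA polymerase III, at 0.960, Fam185a at 0.953 and Zfp672 at 0.952. Cept1 itself ranged only from 78.9 CPM in KO replicate 3 to 87.0 CPM in WT. In all, 64 genes outside the members had a higher r than the best member, Alas2 at 0.895, and Slc4a1 was at 0.40. All these points share library and depth, and with 7 points and so many genes ranked the list is a description.

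Globins of other tissues differed in level. Mb, myoglobin of muscle, had 4.77, 1.61 and 1.86 CPM in neo, 1.65, 2.47 and 2.32 CPM in KO, and 1.84 CPM in WT, and neo replicate 1 stood above the rest. Cygb, cytoglobin, had 16.0 to 21.4 CPM in neo, 19.5 to 21.8 CPM in KO and 18.2 CPM in WT, and Ngb, neuroglobin, had 0 to 4 counts. The 15 lymphocyte genes summed to at most 19.3 CPM in neo, at most 19.9 CPM in KO and 16.3 CPM in WT. Of them 6 were tested between neo and KO, with 0 called and 0 at an unadjusted p under 0.05 by edgeR, where 9.32% of all genes were. Of 12 olfactory epithelium genes 0 were called, with 1 higher (Stoml3, 0.30, adjusted p = 0.499) and 1 lower (Gap43, -0.28, adjusted p = 0.502) at an unadjusted p under 0.05 by edgeR. Over all genes 4.59% were higher and 4.72% lower at that p. Ank1, the red cell ankyrin, named after its values were seen, had 17.3 CPM in neo replicate 1 and 2.99 to 5.39 CPM in the other 6 libraries.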
